A study of Mus musculus with 12 samples.

Results

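Bile duct, keratin and Notch pathway genes were examined in the liver of mice with alcohol-associated steatohepatitis (ASH). The set held 38 genes, chosen by symbol as markers of bile duct cells and liver progenitor cells (30 genes) and as members of the Notch pathway (8 genes), out of 54232 gene IDs in the count table. Counts were found for each of the 38. RNA sequencing was performed on whole liver of 5 mice in the pair-fed group (PF) and 7 in the group fed alcohol (AF), all male, C57BL6/J and aged 8 weeks per the labels, and the labels name no genetic change. AF mice received ethanol at up to 27 g/kg/day by intragastric feeding with a high-fat liquid diet for 8 weeks, together with a weekly binge of 5 g/kg, while PF mice received an isocaloric high-fat liquid diet for 8 weeks. According to the study's methods, mice first ate a solid diet rich in cholesterol and saturated fat or regular chow, the fatty solid diet went on beside the intragastric ethanol, and livers were taken on the day after the last binge. Each group received a high-fat liquid diet, and the sources used here do not say which solid diet PF mice ate. The labels give no identity of the animals beyond a replicate number, and the column names of the count table hold a further number whose meaning is not given, so p-values measure the spread between these libraries. Livers are called by that number (PF 1 to PF 5 and AF 1 to AF 7).

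Between 24129900 and 30578639 reads per library were counted on genes. Values are read counts scaled to 1000000 reads per library (CPM), with library sizes corrected by the TMM factors of edgeR (0.832 to 0.901 in PF livers, 0.88 to 1.36 in AF livers). The tissue label was checked against marker lists. Hepatocyte markers summed to 108816 to 159351 CPM in PF and 59778 to 110266 CPM in AF livers, while pancreas markers summed to at most 0.689 CPM and the intestinal regulators Cdx1 and Cdx2 had 0 counts. The test throughout was the quasi-likelihood test of edgeR on 14168 genes, with p-values adjusted over all of them and a threshold of 0.05.

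Bile ducts are lined by cholangiocytes, epithelial cells that share keratins, junction proteins and transport proteins with other ductal epithelia. After severe or chronic liver injury, small irregular ducts and progenitor-like cells that carry these markers can appear around the portal tracts, a change known as the ductular reaction. Notch signaling, in which a Jagged or Delta ligand on a cell leads to cleavage of a Notch receptor on its neighbor and so switches on Hes and Hey repressors through the DNA-binding protein RBPJ, directs bile duct formation in development.

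Most genes of the set that could be tested were higher in AF livers, with a wide spread from one AF liver to the next. Of the 38 genes, 32 passed the filter on low counts, 21 of these (65.6%) were higher in AF than in PF livers and 2 (6.25%) were lower, against 22.0% higher and 17.8% lower among all genes tested. The median log2 fold change was 1.64 over the 32 genes and 0.04 over all genes tested. The filter itself took part in this count, since 7 genes passed it through the AF livers only and 6 of those were higher. Of the 24 genes that would have passed through either group, 15 were higher. The genes and their roles were also chosen with earlier results of these data known. The excess over all genes tested, here and by role below, is therefore no independent support. Every AF liver lay above every PF liver for 5 of the 32 (15.6%), against 8.20% of all genes tested, and every AF liver lay below for 1 (3.12%), against 9.49%. For 16 of the 21 higher genes the ranges of PF and AF livers overlapped. In whole liver, more cells of a type and more RNA per cell cannot be told apart.

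**Figure D1:**
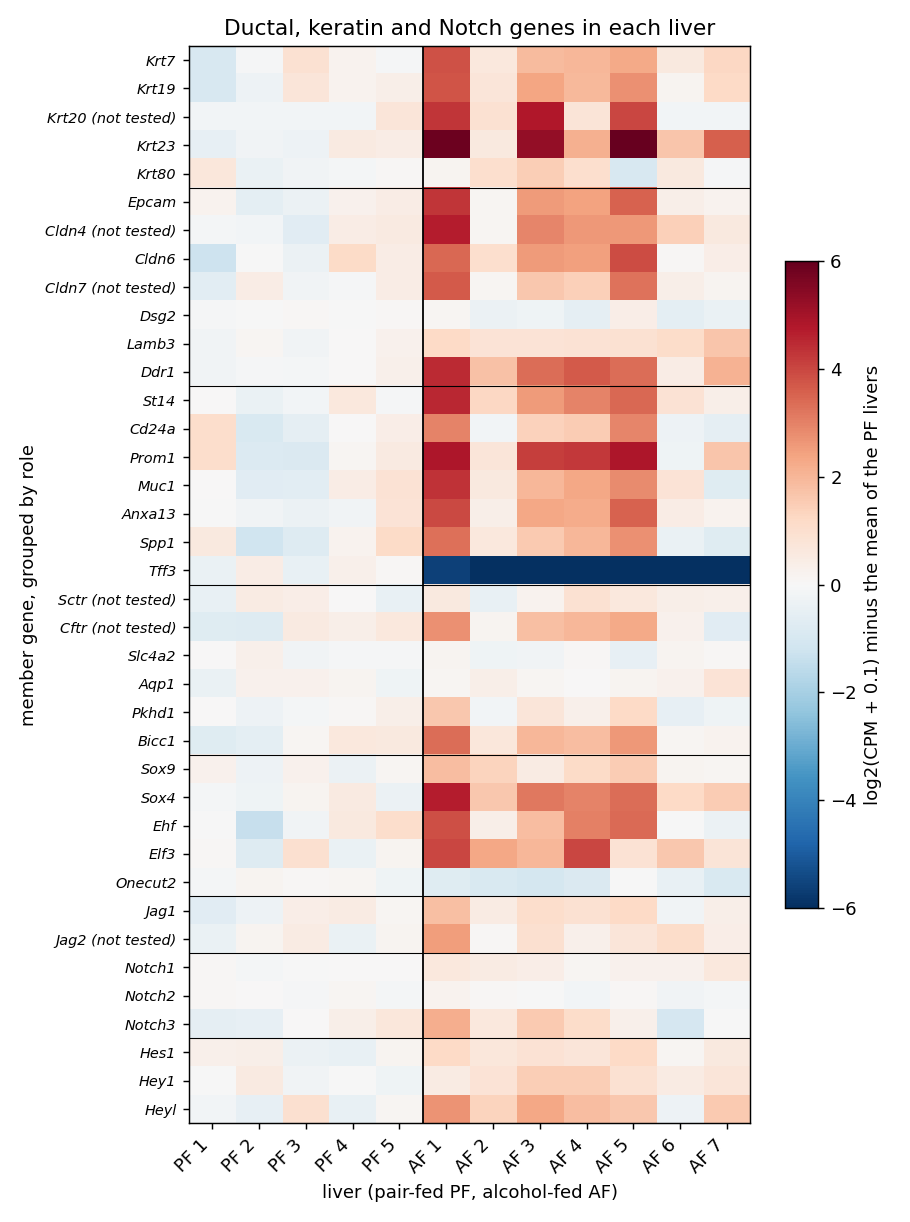
Level of the 38 genes (rows, grouped by role) in each liver (columns), as log2(CPM + 0.1) minus the mean of the 5 PF livers, where colors saturate at the ends of the scale. Red cells gather in AF 1, AF 3, AF 4 and AF 5, columns AF 2, AF 6 and AF 7 are paler, and the row of Tff3 is blue in all 7 AF livers.

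**Figure D2:**
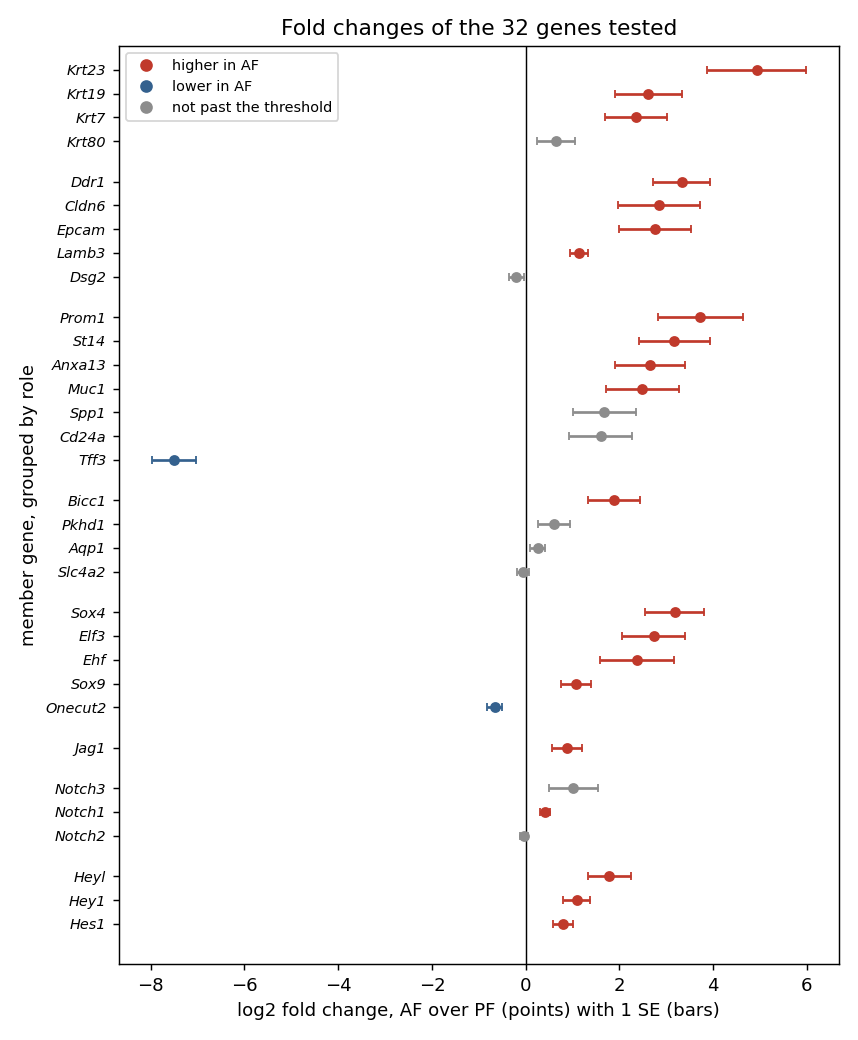
Log2 fold change of AF over PF livers (points) with 1 SE (bars) for the 32 genes tested, grouped by role and colored by the result of edgeR's quasi-likelihood test. Krt23 is highest at 4.93 and Tff3 lowest at -7.51, and 9 genes did not pass the threshold.

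As many members moved together, the promoter windows of 23 of the 38 genes were read from the RefSeq table (GRCm38.p6), which held 31 windows of 250 bases before an annotated start. Several starts are alternative ones, and 14 of the 31 windows lie wholly inside the span of the gene in GENCODE M21. The core letters bound by RBPJ, TGGGAA on either strand, were present in 9 of the 31 windows (8 genes) and in 21.6% of the 32851 windows in the table. The windows of Jag1, Notch1, Notch2, Notch3 and Epcam did not hold these letters. No window was available for 15 genes, so these were not examined. Among them were the Notch targets Hes1, Hey1 and Heyl, as well as Sox9 and Krt19. On both strands, the AP-1 letters TGANTCA were found in 4 of the 31 windows (3 genes) and the TEAD letters GGAATG in 7 of 31 (7 genes). The grainyhead-like letters AACNNGTT were found in 3 of 31 (2 genes) and the ETS letters CCGGAAG in 4 of 31 (3 genes). Over the whole table these 4 were found in 6.75%, 12.6%, 3.64% and 6.91% of windows. The counts in the set were not tested against these shares. RBPJ and TEAD letters can overlap, and did so in 1 of the 3 windows that hold both. A match is a description of the sequence and no measure of binding.

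Windows of 4 genes that were higher in AF livers, chosen after the matches were seen among windows with at most 30 bases in exons of the gene, show the letters in place. They run 5′ to 3′ on the strand of the gene, with the match in capitals. For Sox4 (chr13:28953700-28953949, minus strand) and Lamb3 (chr1:193301744-193301993, plus strand) the capitals mark RBPJ letters, for Prom1 (chr5:44094769-44095018, minus strand) AP-1 letters and for Muc1 (chr3:89228806-89229055, plus strand) TEAD letters. The windows of Lamb3 and Prom1 lie inside the gene, before an alternative start.
Sox4: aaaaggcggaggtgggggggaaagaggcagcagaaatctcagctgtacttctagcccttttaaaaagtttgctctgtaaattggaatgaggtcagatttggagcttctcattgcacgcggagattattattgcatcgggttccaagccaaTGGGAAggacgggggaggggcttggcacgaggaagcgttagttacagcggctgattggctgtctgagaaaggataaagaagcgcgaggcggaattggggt
Lamb3: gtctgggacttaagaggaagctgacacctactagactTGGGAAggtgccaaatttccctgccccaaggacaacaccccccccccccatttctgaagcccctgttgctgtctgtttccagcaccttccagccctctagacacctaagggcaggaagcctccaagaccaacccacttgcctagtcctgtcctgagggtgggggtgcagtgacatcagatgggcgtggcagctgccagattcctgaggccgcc
Prom1: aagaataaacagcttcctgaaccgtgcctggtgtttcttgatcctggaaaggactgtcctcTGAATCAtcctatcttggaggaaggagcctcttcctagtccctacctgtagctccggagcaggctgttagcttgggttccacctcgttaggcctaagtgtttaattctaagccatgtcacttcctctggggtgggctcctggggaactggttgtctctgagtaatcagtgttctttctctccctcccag
Muc1: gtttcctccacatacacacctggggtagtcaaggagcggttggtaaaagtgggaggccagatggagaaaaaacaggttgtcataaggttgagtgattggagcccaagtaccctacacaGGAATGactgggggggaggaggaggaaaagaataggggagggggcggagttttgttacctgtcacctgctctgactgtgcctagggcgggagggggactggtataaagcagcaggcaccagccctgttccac

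Keratins are the intermediate filament proteins of epithelia, and Krt7 and Krt19 are the pair by which pathologists recognize bile ducts. Of 5 keratins in the set, 4 were tested, 3 were higher in AF livers and 0 were lower, against 22.0% and 17.8% of all genes tested. The higher keratins, Krt7, Krt19 and Krt23, each passed the filter through the AF livers only, so their count is no support on its own. Krt19 (chr11:100140810-100148665, GRCm38) was measured at 0.0492, 0.137, 0.375, 0.236 and 0.271 CPM in PF 1 to PF 5, and its AF values ran from 0.223 through a median of 1.03 to 3.91 CPM. AF 1 was highest, and AF 6 alone lay within the PF range. Krt19 rose by 2.62 on the log2 scale (SE 0.713, adjusted p = 0.0112). Krt7 (chr15:101411043-101430313) showed PF values of 0.0984, 0.275, 0.625, 0.354 and 0.271 CPM against 0.484 to 5.44 CPM (median 1.37) in AF livers. AF 2 and AF 6 lay below the highest PF liver. The log2 fold change of Krt7 was 2.36 (SE 0.657, adjusted p = 0.0127), and 1.70 without AF 1.

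Krt23, a type I keratin that is induced in stressed liver, changed most among the higher genes. Krt23 (chr11:99477974-99493137) was between 0.246 and 0.59 CPM in the 5 PF livers (0.246, 0.32, 0.292, 0.59 and 0.543 in order) and between 0.616 and 29.9 CPM in AF livers, with a median of 5.63. Every AF liver was above every PF liver, although AF 2 exceeded the highest PF liver only narrowly and AF livers differed 48.6-fold among themselves. The PF mean was 0.398 ± 0.157 CPM (SD, n = 5) and the AF mean 12.3 ± 13 CPM (SD, n = 7), so that Krt23 was higher by 4.93 on the log2 scale (SE 1.05, adjusted p = 0.00309). With limma-voom and quality weights the fold change was smaller, at 3.53 on the log2 scale (adjusted p = 0.0349).

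Krt20, the keratin of intestinal and urothelial surface cells, was below the filter. It had 0 counts in PF 1 to PF 4, which allows up to 0.118 to 0.147 CPM at a confidence of 95%, and 0.0905 CPM in PF 5. Values in AF 1, AF 3 and AF 5 were 2.13, 3.07 and 1.74 CPM, whereas AF 2 and AF 4 had 0.115 and 0.0938 CPM and AF 6 and AF 7 had 0 counts. When every gene with a count was fitted, edgeR's quasi-likelihood test gave Krt20 an adjusted p of 0.0176. Krt80, a keratin of stratified and glandular epithelia, was between 0.503 and 1.18 CPM in PF and between 0.314 and 2.1 CPM in AF livers and did not pass the test (log2 fold change 0.65, SE 0.41, adjusted p = 0.218).

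Hepatocytes make Krt8 and Krt18, and these were the only keratins outside the set that passed the test. Of the 45 other keratins in the table, 24 had 0 counts in every liver and 3 were tested. Krt8 averaged 127 ± 14.5 CPM in the 5 PF livers and 231 ± 59 CPM in the 7 AF livers (± SD). It was higher by 0.87 on the log2 scale (adjusted p = 0.00229), and Krt18 by 0.75 (adjusted p = 0.00425). For both, every AF liver was above every PF liver. Per kilobase of exon, Krt8 went from 64.7 to 118 CPM and Krt18 from 107 to 180 CPM, while Krt23 went from 0.254 to 7.87, Krt19 from 0.115 to 0.724 and Krt7 from 0.0461 to 0.24 CPM.

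**Figure D3:**
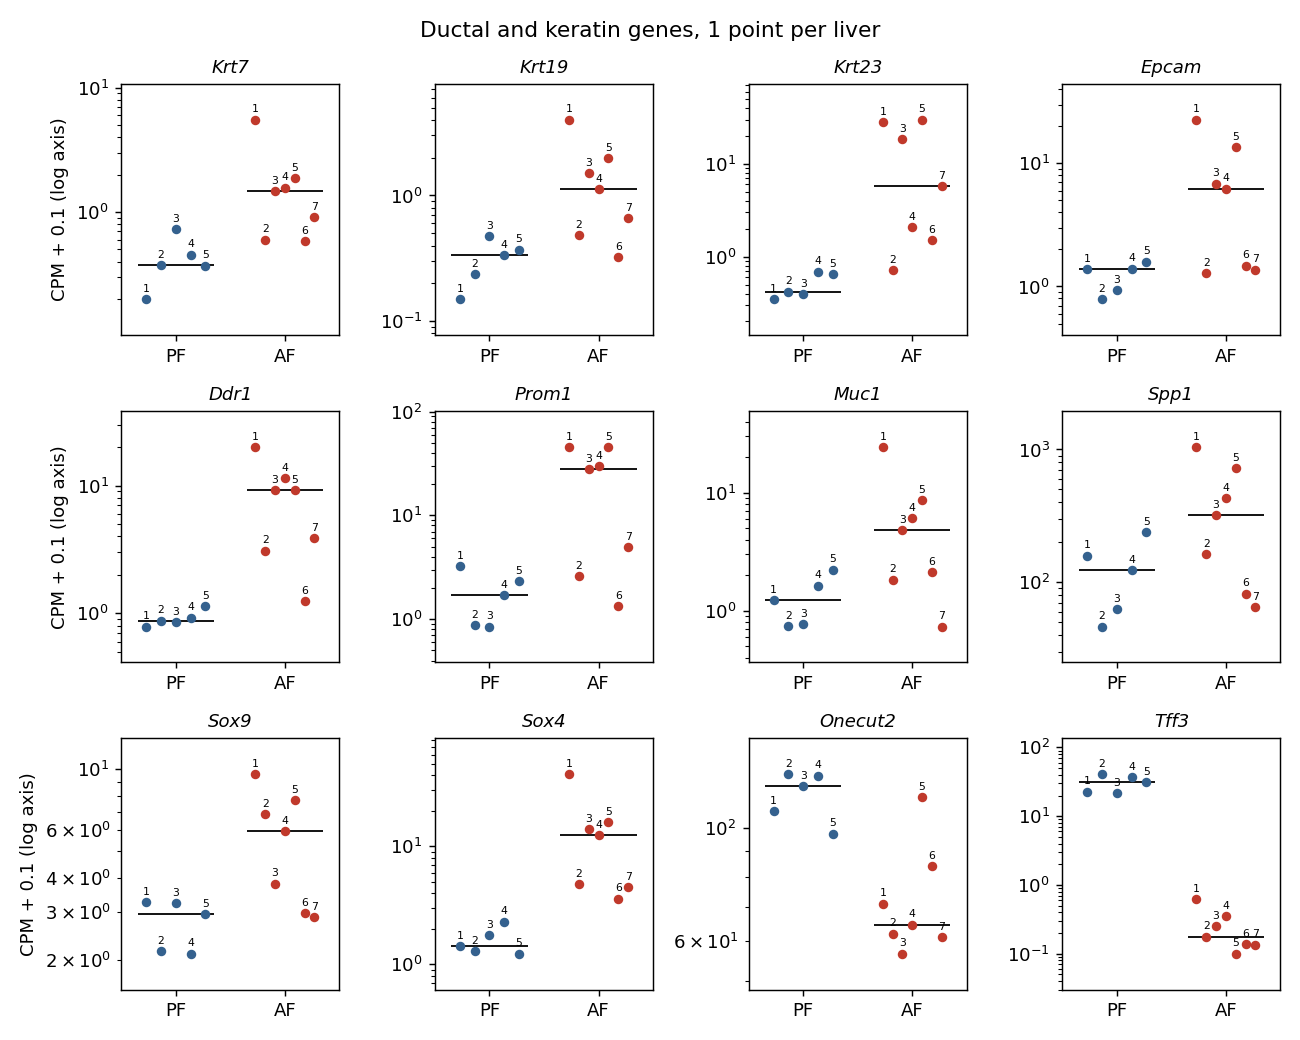
CPM + 0.1 on a log axis for 12 ductal and keratin genes, each on its own scale, with 1 numbered point per liver (blue PF, red AF) and the group median as a line. For Epcam the points of AF 2, AF 6 and AF 7 lie among those of PF livers, for Sox4 and Ddr1 every AF point lies above every PF point, and for Tff3 every AF point lies far below.

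Genes of adhesion, tight junctions and matrix followed. Of 7 genes, 5 were tested and 4 were higher in AF livers, against 22.0% of all genes tested. Of the 4, Cldn6 passed the filter through the AF livers only. Epcam, the adhesion molecule that marks bile duct and progenitor cells but not mature hepatocytes (chr17:87635979-87651129), was 1.28, 0.686, 0.833, 1.3 and 1.49 CPM in PF 1 to PF 5 and ran from 1.19 through 6.13 to 22.6 CPM in AF livers. AF 1, AF 3, AF 4 and AF 5 were above every PF liver, and AF 2, AF 6 and AF 7 fell within the PF range. Epcam was higher by 2.76 on the log2 scale (SE 0.767, adjusted p = 0.0126), or 2.09 with limma-voom and quality weights. Ddr1, a receptor tyrosine kinase for collagen, was 0.689, 0.778, 0.75, 0.826 and 1.04 CPM in PF livers and 1.15 to 20 CPM (median 9.07) in AF livers. Its groups did not overlap, and AF 6 was the lowest of the AF livers. The log2 fold change of Ddr1 was 3.33 (SE 0.609, adjusted p = 0.00127).

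Claudins seal tight junctions. Cldn6, a claudin of embryonic epithelia, was between 0 and 0.433 CPM in PF and between 0.149 and 3.48 CPM in AF livers, and it was higher by 2.85 on the log2 scale (SE 0.872, adjusted p = 0.0199). It passed the filter through the AF livers only. The call was lost without PF 3 (2.67, adjusted p = 0.0501), and the fold change was 3.51 without PF 4. Cldn4 and Cldn7, claudins of ductal and glandular epithelia, were below the filter. Cldn4 was at most 0.136 CPM in PF livers and reached 4.1 CPM in AF 1, 1.12 in AF 3, 0.876 in AF 4 and 0.884 in AF 5, against 0.077, 0.335 and 0.141 CPM in AF 2, AF 6 and AF 7. Cldn7 was 0.0984 to 0.32 CPM in PF and 0.231 to 3.78 CPM in AF livers, with AF 2, AF 6 and AF 7 inside the PF range. In the fit of every gene with a count, adjusted p-values were 0.0087 for Cldn4 and 0.0236 for Cldn7.

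Lamb3, the beta chain of laminin-332, an epithelial basement membrane protein, differed from the other junction genes in how evenly it moved. PF values were 1.18, 1.51, 1.17, 1.42 and 1.67 CPM, and AF values ran from 2.54 through 2.68 to 4.61 CPM. No AF liver overlapped with PF, the highest was AF 7 rather than AF 1, and the AF livers differed by 1.81-fold. Lamb3 rose by 1.14 on the log2 scale (SE 0.196, adjusted p = 8.99e-04). Lama3, the alpha chain of the same laminin, was lower at -2.33 (adjusted p = 1.50e-04), without overlap between groups. Dsg2, the desmosomal cadherin of simple epithelia including hepatocytes, was 160 to 177 CPM in PF and 111 to 219 CPM in AF livers (log2 fold change -0.20, SE 0.157, adjusted p = 0.334). The sign of Dsg2 turned to 0.19 when libraries were scaled by their totals only, and it passed the test with limma-voom and quality weights at -0.30 (adjusted p = 0.0326).

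Of 7 surface, mucin and secreted proteins, all tested, AF livers had 4 (57.1%) higher and 1 (14.3%) lower, against 22.0% and 17.8% of all genes tested. Prom1 (CD133), the pentaspan membrane protein used to isolate liver progenitor cells (chr5:43993620-44102032), was 3.15, 0.778, 0.75, 1.61 and 2.22 CPM in PF livers and 1.23 to 45.8 CPM (median 27.7) in AF livers. AF 1, AF 3, AF 4 and AF 5 were at 45.1, 27.7, 30 and 45.8 CPM, AF 7 was just above the PF range at 4.85, and AF 2 and AF 6 were within it. Prom1 was higher by 3.73 on the log2 scale (SE 0.9, adjusted p = 0.00604). St14, the membrane serine protease matriptase, was at most 0.59 CPM in PF livers and ran from 0.457 through 2.52 to 9.9 CPM in AF livers. AF 7 alone overlapped with PF. St14 was higher by 3.17 on the log2 scale (adjusted p = 0.00588), or 2.57 without AF 1, and it passed the filter through the AF livers only.

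Muc1, a membrane mucin of ductal surfaces, was 1.13, 0.641, 0.667, 1.53 and 2.13 CPM in PF livers and 0.633 to 24.4 CPM (median 4.71) in AF livers. AF 7 was below every PF liver and AF 1 far above the other AF livers. Its log2 fold change was 2.49 (SE 0.779, adjusted p = 0.0222), 1.70 without AF 1 and 1.83 with limma-voom and quality weights. The call was lost without PF 2 (2.33, adjusted p = 0.0554) or PF 3 (2.33, adjusted p = 0.0544). Anxa13, an annexin of polarized epithelia, was 0.417 to 1.04 CPM in PF and 0.668 to 10.1 CPM in AF livers and was higher by 2.66 on the log2 scale (adjusted p = 0.0128), or 2.07 with limma-voom and quality weights.

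Spp1 and Cd24a did not pass the test. Spp1 (osteopontin), a secreted phosphoprotein made by bile duct cells and by macrophages, was 159, 46.4, 63.2, 124 and 239 CPM in PF livers and 64.9 to 1048 CPM (median 320) in AF livers (log2 fold change 1.68, SE 0.678, adjusted p = 0.0635). AF 2, AF 6 and AF 7 lay within the PF range, which itself was wide. The macrophage list summed to 867 to 1314 CPM in PF and 1540 to 4500 CPM in AF livers. In this list 9 of 10 genes (90.0%) were higher, against 22.0% of all genes tested. From AF 1 to AF 7, the macrophage sum was 2756, 2969, 4500, 2908, 1781, 1540 and 2095 CPM. Spp1 in the same order was 1048, 163, 320, 428, 720, 82.2 and 64.9 CPM. The part of macrophages in the level of Spp1 was not tested further.

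Cd24a, a small glycoprotein of duct and progenitor cells that neutrophils and B cells also carry, was 14, 3.48, 4.5, 6.84 and 8.73 CPM in PF livers and 4.54 to 53.9 CPM (median 17.6) in AF livers (log2 fold change 1.60, SE 0.663, adjusted p = 0.0692). PF 1 was the highest PF liver for Cd24a, and its 9 neutrophil markers summed to 1041 CPM against 61.5 to 235 CPM in the other PF livers. In AF livers neutrophil markers summed to 48.7 to 211 CPM, and 0 of the 9 passed the test. B cell markers summed to 2.46 to 7.15 CPM in PF livers, lowest in PF 1, and to 1.22 to 4 CPM in AF livers. Of the 4 B cell markers tested, 0 passed. The part of neutrophils and B cells in the level of Cd24a was not tested. Over 18 alternatives the adjusted p-value ranged from 0.00101 to 0.144 for Cd24a, passing in 6, and from 3.33e-04 to 0.133 for Spp1, passing in 5. Among these, the fits without AF 6 or AF 7 gave 1.78 and 1.79 for Cd24a (adjusted p = 0.037 and 0.0376) and 1.86 and 1.87 for Spp1 (adjusted p = 0.0313 and 0.0308), and the fit without AF 2 gave 1.74 for Cd24a (adjusted p = 0.048).

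Tff3, a trefoil peptide secreted with mucus, fell, like Onecut2 and unlike the 21 higher genes. PF livers had 22.7, 41.1, 21.8, 37 and 31.3 CPM (462 to 942 counts), and AF livers had 0 to 0.518 CPM (0 to 20 counts). All 7 AF livers were below all 5 PF livers. Tff3 (chr17:31125306-31129646) was lower at -7.51 on the log2 scale (SE 0.469, adjusted p = 3.42e-07), and at -8.29 without AF 1, in which its remaining counts were highest. It passed the filter through the PF livers only.

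Of 6 genes of ductal bile secretion and cilia, 4 were tested and 1 (25.0%) was higher, near the 22.0% of all genes tested. Bicc1, an RNA-binding protein whose loss gives cysts in ducts and tubules, was 3.35, 3.61, 5.96, 8.61 and 8.37 CPM in PF livers and 6.07 to 57.9 CPM (median 20.1) in AF livers. AF 6 and AF 7 overlapped with PF. Bicc1 was higher by 1.89 on the log2 scale (SE 0.562, adjusted p = 0.0174). Pkhd1, the ciliary protein fibrocystin mutated in recessive polycystic disease, was 9.06 to 14.5 CPM in PF and 8 to 34.9 CPM in AF livers (log2 fold change 0.60, SE 0.339, adjusted p = 0.174), with AF 1, AF 3 and AF 5 above the PF range. It passed with library totals only (1.04, adjusted p = 0.0482).

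Slc4a2, the chloride and bicarbonate exchanger of the duct membrane, averaged 15.5 ± 2.22 CPM in the 5 PF livers and 14.9 ± 2.4 CPM in the 7 AF livers (± SD, log2 fold change -0.06, SE 0.129, adjusted p = 0.754). Its sign turned to 0.31 with library totals only, 0.03 without PF 2 and 0.01 without AF 5. Aqp1, a water channel of bile ducts and of endothelium, was 61.7 to 99.6 CPM in PF and 82.3 to 145 CPM in AF livers (log2 fold change 0.26, SE 0.161, adjusted p = 0.208), and with library totals only it passed at 0.60 (adjusted p = 0.0055). The endothelial marker list summed to 159 to 341 CPM in PF and 226 to 365 CPM in AF livers. In this list 2 of 11 genes (18.2%) were higher, against 22.0% of all genes tested. Cftr, the chloride channel of the duct apical membrane, was below the filter at 0.0915 to 0.407 CPM in PF livers, with 2.1, 1.06, 1.19 and 1.48 CPM in AF 1, AF 3, AF 4 and AF 5 and 0.106 to 0.298 CPM in the other AF livers. Sctr, the secretin receptor of large ducts, was at or under 5 counts in every liver.

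All 5 transcription factors were tested, and AF livers had 4 higher and 1 lower, where all genes tested gave 22.0% and 17.8%. Sox4 (chr13:28948919-28953713), an HMG box factor that acts with Sox9 in bile duct formation, was 1.33, 1.19, 1.67, 2.2 and 1.13 CPM in PF livers and ran from 3.5 through 12.3 to 41.1 CPM in AF livers. Every AF liver was above every PF liver, with AF 1 far above the next. Sox4 was higher by 3.18 on the log2 scale (SE 0.622, adjusted p = 0.00185). Sox9, the marker of the earliest biliary cells, changed less, from 3.15, 2.06, 3.13, 2.01 and 2.85 CPM in PF livers to 2.78 to 9.51 CPM (median 5.85) in AF livers. AF 6 and AF 7 overlapped with PF, and AF 2 at 6.73 CPM was above AF 3 and AF 4. The log2 fold change of Sox9 was 1.08 (SE 0.319, adjusted p = 0.0166).

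Elf3 and Ehf are epithelial ETS factors. Elf3 was 1.38, 0.732, 2.63, 0.983 and 1.49 CPM in PF livers and 2.36 to 22.7 CPM (median 5.62) in AF livers, and was higher by 2.73 on the log2 scale (SE 0.663, adjusted p = 0.00639). Unlike most genes of the set, Elf3 was low in AF 5 (2.48 CPM), within the PF range as in AF 7. Ehf was 1.43, 0.503, 1.25, 2.24 and 3.12 CPM in PF livers and 1.13 to 23 CPM (median 5.56) in AF livers, with AF 2, AF 6 and AF 7 within the PF range. Its log2 fold change was 2.38 (SE 0.784, adjusted p = 0.0283). The direction stayed but the call was lost without PF 1 (2.32, adjusted p = 0.0581), PF 2 (2.14, 0.0666), PF 3 (2.28, 0.0636) or AF 1 (1.94, 0.0554) and with limma-voom and quality weights (1.80, 0.0527).

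Onecut2, a cut-homeodomain factor of hepatocytes and developing bile ducts, fell. It was 108, 128, 121, 127 and 97.5 CPM in PF livers and 56.4 to 115 CPM (median 64.4) in AF livers, where AF 5 alone lay within the PF range. The log2 fold change was -0.66 (SE 0.164, adjusted p = 0.00675), and -0.30 (adjusted p = 0.166) with library totals only, a scaling that moved the median of all genes from 0.04 to 0.40. Its paralog Onecut1 was also lower, at -1.62 (adjusted p = 6.76e-04), without overlap between groups.

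Of 8 Notch genes in the set, 7 were tested, 5 were higher in AF livers and 0 were lower, against 22.0% and 17.8% of all genes tested. Of the 5, Hey1 passed the filter through the AF livers only. The ligand Jag1 (chr2:137081456-137116644) was 2.21, 2.84, 4.67, 4.99 and 3.85 CPM in PF livers and 3.02 to 12.6 CPM (median 6.88) in AF livers. AF 6 and AF 7 overlapped with PF, and AF 2 was barely above PF 4. The log2 fold change of Jag1 was 0.88 (SE 0.323, adjusted p = 0.0449), close to the threshold. The call was lost in 8 of the 12 fits that left out a library, without PF 1 (0.74, adjusted p = 0.101), PF 2 (0.79, 0.102), PF 3 (0.97, 0.0543), PF 5 (0.89, 0.0768), AF 1 (0.66, 0.084), AF 3 (0.86, 0.07), AF 4 (0.88, 0.0648) or AF 5 (0.83, 0.0711). The ligand Jag2 was below the filter, at 0 to 0.0833 CPM in PF and 0.0385 to 0.648 CPM in AF livers.

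Among the receptors, Notch2 was the most abundant per kilobase of exon (4.49 CPM in PF and 4.4 CPM in AF livers) and did not pass the test. Notch2, which like Jag1 can be mutated in Alagille syndrome, averaged 48.4 ± 2.85 CPM in the 5 PF livers and 47.5 ± 5.15 CPM in the 7 AF livers (± SD, log2 fold change -0.03, SE 0.0858, adjusted p = 0.81). Its sign turned to 0.35 with library totals only and was 0.00 without AF 6. Notch1 was 8.37, 7.41, 8.04, 8.3 and 8.14 CPM in PF livers and 8.73 to 12.5 CPM (median 10.7) in AF livers. All AF livers were above all PF livers, though AF 4 only narrowly, and the log2 fold change was small at 0.41 (SE 0.108, adjusted p = 0.0102). Notch3, the receptor of pericytes and smooth muscle, was 0.394 to 1.04 CPM in PF and 0.261 to 3.16 CPM in AF livers (log2 fold change 1.02, SE 0.521, adjusted p = 0.133). It passed the test without AF 6, the AF liver in which it was lowest (1.20, adjusted p = 0.0432).

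The set holds 3 of the genes that Notch signaling switches on, and each was higher, against 22.0% of all genes tested. Hes1 (chr16:30064384-30067796), a basic helix-loop-helix repressor, was 4.82, 4.99, 3, 2.79 and 4.3 CPM in PF livers and 4.24 to 9.12 CPM (median 6.54) in AF livers, and it was higher by 0.80 on the log2 scale (SE 0.216, adjusted p = 0.0113). AF 6 alone overlapped with PF. Hey1, a related repressor of vessels and ducts, was 0.443, 0.686, 0.375, 0.433 and 0.362 CPM in PF livers and 0.67 to 1.44 CPM (median 0.885) in AF livers, higher by 1.09 (log2, SE 0.285, adjusted p = 0.00951). AF 1 and AF 6 lay just under PF 2, and AF 4 and AF 3 were highest. Heyl, prominent in vessel walls, was 0.886, 0.686, 2.04, 0.708 and 1.09 CPM in PF livers and 0.782 to 7.1 CPM (median 3.22) in AF livers, higher by 1.79 (log2, SE 0.457, adjusted p = 0.00814). AF 6 alone lay within the PF range. The calls of Notch1 and of the 3 target genes were kept in all 18 alternatives.

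**Figure D4:**
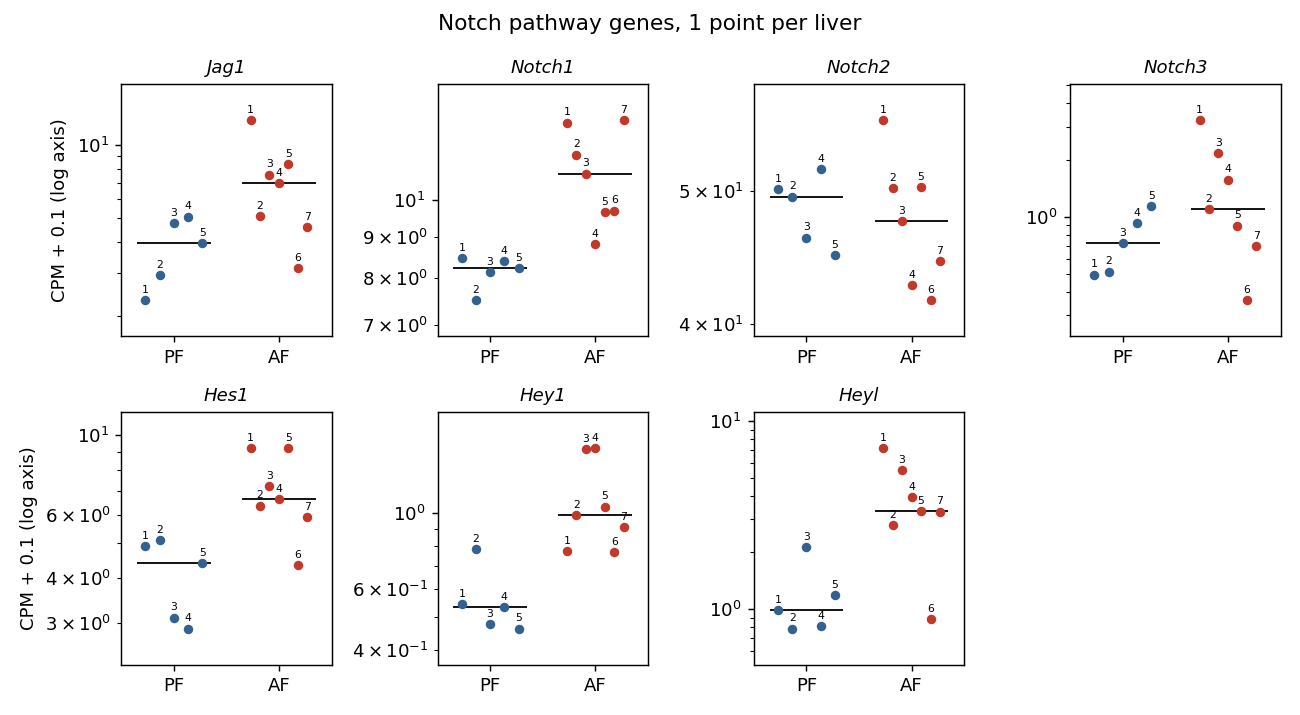
CPM + 0.1 on a log axis for the 7 Notch genes tested, each on its own scale, with 1 numbered point per liver (blue PF, red AF) and the group median as a line. Notch1 shows no overlap between groups, the points of Notch2 overlap widely on a narrow scale, and AF 6 is the lowest AF liver for Jag1, Notch2, Notch3, Hes1, Hey1 and Heyl.

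Cells of vessel walls and fibroblasts also use these Notch genes. Of 12 markers of stellate cells and fibroblasts 9 (75.0%) were higher, against 22.0% of all genes tested. The 12 markers of these cells summed to 110 to 225 CPM in PF and 198 to 693 CPM in AF livers. Among AF livers the sum was lowest in AF 6 (198 CPM) and highest in AF 1. The part of these cells in the values of Notch3, Heyl and Jag1 was not tested. Of 41 other genes of the Notch pathway, 33 were tested, 10 (30.3%) were higher and 5 (15.2%) were lower, with a median log2 fold change of 0.18. These shares are near the 22.0% and 17.8% of all genes tested. The higher genes without overlap between groups included Numbl (1.75, adjusted p = 0.00221), a relative of the Notch inhibitor Numb, Dtx3 (1.59, adjusted p = 9.05e-05), of the Deltex ubiquitin ligases, and Lfng (0.99, adjusted p = 0.00226), a glycosyltransferase that tunes receptors toward Delta ligands. The lower genes included Hes6 (-1.71, adjusted p = 2.06e-05), which opposes Hes1, Psen2 (-0.64, adjusted p = 0.0042), a catalytic subunit of the gamma-secretase that cuts Notch, and Dtx3l (-0.55, adjusted p = 0.00437).

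Genes that work with the ductal members were read from the same fit, in which 22.0% of all genes tested were higher and 17.8% lower. Of 17 genes of bicarbonate secretion and bile salt transport, 14 were tested, 6 (42.9%) were higher and 3 (21.4%) were lower, but 2 were higher without PF 2 or without PF 3, and 3 without PF 4 or without PF 5. Abcc4, an export pump for bile salts, was higher by 5.05 (adjusted p = 5.85e-06), and Slc10a2, the bile salt importer of the duct and ileum, was lower at -3.59 (adjusted p = 1.23e-05). Of 18 junction partners tested, 6 (33.3%) were higher and 1 (5.56%) was lower (2 without AF 1), and the tetraspanin Cd9 was higher by 1.45 (adjusted p = 0.00469). Of 9 partners of matriptase, 4 (44.4%) were higher and 2 (22.2%) were lower, among them Tmprss2 at 1.40 (adjusted p = 3.36e-04) and the growth factor receptor Met at -0.65 (adjusted p = 0.0012). The lower count was 1 without PF 1, PF 2, PF 3, PF 5, AF 1, AF 3, AF 4 or AF 5.

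Of 15 signals of progenitor growth and YAP activity tested, 5 (33.3%) were higher and 1 (6.67%) was lower, against 22.0% and 17.8% of all genes tested. Tnfrsf12a, the receptor for TWEAK, a cytokine that drives progenitor growth, averaged 3.92 ± 0.564 CPM in the 5 PF livers and 24.6 ± 15.9 CPM in the 7 AF livers (± SD), higher by 2.65 on the log2 scale (adjusted p = 1.80e-04). Every AF liver was at least at 12 CPM against at most 4.76 CPM in PF livers. Ajuba (1.75, adjusted p = 4.51e-04) and Axl (1.15, adjusted p = 8.79e-04) also rose, and Lgr5, a Wnt target of hepatocytes around the central vein, fell (-2.06, adjusted p = 6.36e-05). Of 13 genes of cilia, cysts and ductal regulators tested, 3 (23.1%) were higher (1 without PF 2), including Tead1 (1.17, adjusted p = 0.00175), and 2 (15.4%) were lower (1 without PF 3), close to the shares over all genes tested. Of 7 other claudins tested, 0 were higher, with 1 higher without PF 1 or without AF 5, and 1 was lower, Cldn12 (-0.62, adjusted p = 1.44e-04), with 2 lower without AF 6 or without AF 7.

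The 7 AF livers did not share the change evenly. Of the 32 genes tested, 22 (68.8%) were highest among AF livers in AF 1, against 17.7% of all genes tested, and 15 (46.9%) were lowest in AF 6, against 27.6%. Part of this order was common to genes that were higher in AF livers. AF 1 was highest for 71.4% of the 21 higher genes of the set and for 37.5% of all 3116 higher genes, and AF 6 was lowest for 52.4% and 50.5%. AF 1, AF 3, AF 4 and AF 5 were among the 4 highest AF livers for 29, 27, 26 and 26 of the 32 genes, and AF 2, AF 6 and AF 7 for 10, 5 and 5. Over all genes tested, each AF liver was among the 4 highest for 52.7 to 61.9%, and over all 3116 higher genes AF 1 was for 83.4%, AF 3 for 79.3%, AF 4 for 69.9%, AF 5 for 54.7%, AF 2 for 45.3%, AF 7 for 42.5% and AF 6 for 24.9%. Of the 10 genes that were not highest in AF 1, Krt23, Cldn6, Prom1, Dsg2 and Onecut2 were highest in AF 5, Lamb3, Aqp1 and Notch1 in AF 7, Krt80 in AF 3 and Hey1 in AF 4.

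The share of genes above every PF liver was read in the same way. Of the 21 genes of the set that were higher, 33.3% were above every PF liver in AF 6 and 52.4% in AF 7, and of all 3116 higher genes 57.2% and 82.8% were. In AF 3 and AF 4 the share was 100% of the 21 genes, and 95.8% and 94.3% of all higher genes. AF 2 had 66.7% against 87.9%. These shares are descriptions without a test, since AF livers carry no label that would separate them.

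**Figure D5:**
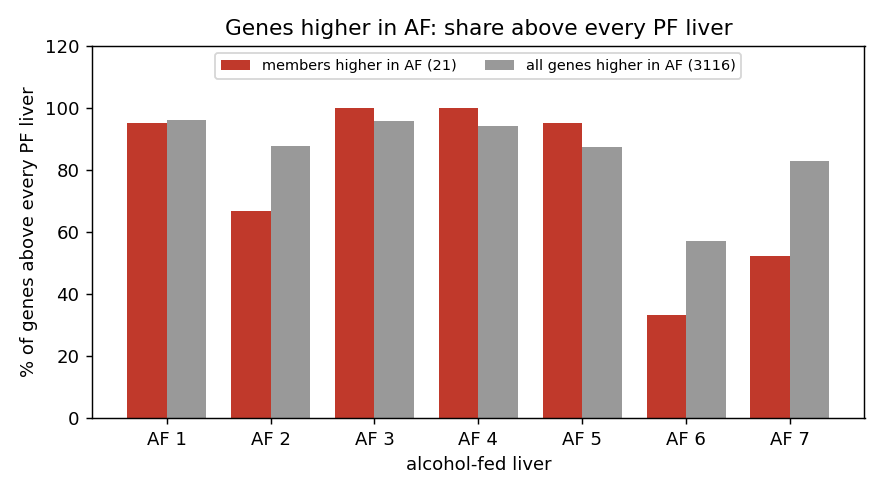
Percentage of genes above every PF liver in each AF liver, for the 21 genes of the set that were higher in AF (red) and all 3116 higher genes (gray). In AF 2, AF 6 and AF 7 the red bars are shorter than the gray ones, and in AF 3, AF 4 and AF 5 slightly taller.

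Other cell types were summed beside this order. Hepatocyte markers summed to 62282, 81815, 59778 and 67217 CPM in AF 1, AF 3, AF 4 and AF 5, and to 81262, 110266 and 107967 CPM in AF 2, AF 6 and AF 7. Of these 9 markers, 3 (33.3%) were lower in AF livers and 0 were higher, against 17.8% and 22.0% of all genes tested. TMM factors were 1.36, 1.2, 1.23 and 1.15 in AF 1, AF 3, AF 4 and AF 5 and 1.04, 0.88 and 0.96 in AF 2, AF 6 and AF 7. In AF 1 to AF 7, macrophage markers summed to 2756, 2969, 4500, 2908, 1781, 1540 and 2095 CPM. Stellate cell and fibroblast markers summed to 693, 647, 641, 529, 456, 198 and 324 CPM in the same order. Epcam was 22.6, 1.19, 6.74, 6.13, 13.5, 1.38 and 1.27 CPM in these livers. Markers of mesothelium, which also makes Krt7 and Krt19, summed to 0.246 to 10.8 CPM in PF and 1.38 to 10.5 CPM in AF livers, and 0 of 6 passed the test. The highest mesothelial sum in PF livers was in PF 3, the PF liver with the most Krt7 and Krt19. Among AF livers, the mesothelial sums were 9.62, 5.46, 6.83, 4.1, 10.5, 1.38 and 9.04 CPM in AF 1 to AF 7. Krt19 in the same order was 3.91, 0.385, 1.4, 1.03, 1.88, 0.223 and 0.563 CPM. The part of cell composition in the values was not tested further.

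Per kilobase of exon, the level of the 38 genes in PF livers ran from 0.00501 CPM for Jag2 to 76.5 CPM for Spp1, followed by Tff3 (62.4), Aqp1 (31.8), Dsg2 (20.4) and Onecut2 (7.16). In AF livers Spp1 (245), Aqp1 (38.2) and Dsg2 (17.8) were highest, followed by Cd24a (8.81) and Krt23 (7.87), and Tff3 was at 0.31 CPM. Neighbors in this order were not tested against each other. Lengths are of all annotated exons together, so a gene with many alternative exons is set low.

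Some genes share exons with others in the annotation, and the strand setting of the counting is not given in the sources used here. Spp1 and Notch2 overlap another gene on the same strand (Gm42793 and Gm42820). Krt7, Krt80, Sox4, Cftr, Prom1, Pkhd1, Bicc1, Elf3, Ddr1, Dsg2, Slc4a2, Notch1 and Notch3 overlap one on the opposite strand, so their values are uncertain to that extent.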

How the data were processed

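The authors extracted whole liver RNA, enriched mRNA with oligo(dT), made stranded libraries and aligned reads to GRCm38 (mm10). The submitters' processing notes name FastQC 0.10.1, TopHat2 2.0.13 and HTSeq 0.10.0. They deposited raw read counts per Ensembl gene, without normalization, for 12 libraries. The annotation and strand setting of the counting are not given in the sources used here. The Cuffdiff2 test of the paper needs alignments and was not used. GENCODE M21 gave a symbol to 54165 of the 54232 gene IDs. The 38 members, their roles and all lists were chosen with earlier results of these data known. From the counts, TMM factors, CPM and the filter filterByExpr (14168 genes left) were computed, and AF was compared with PF by edgeR's quasi-likelihood test (R 4.3.3, edgeR 4.0.16) without covariates, with Benjamini-Hochberg adjustment at 0.05. The SE was derived from the F statistic. In the other lists, up to 3 genes per direction were named, those with the largest change past the threshold and no overlap between groups. A gene that this rule selected is not reported here. Alternatives were DESeq2 1.42.0, RLE, library totals, limma-voom (limma 3.58.1), no filter, a replicate block, and each library left out. Among 31 pairs of libraries within groups, the lowest chi-square per gene was 21.2, so none was a repeat. Limits on a count of 0 (3 counts, 95%) cover counting error only.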

Additional observations from a re-analysis of the deposited data

Results flagged for a closer look

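For each of the 38 genes, the values of each group were examined for a liver set far apart from its group (Dixon's limit at 95%). Of 76 groups of values 10 held such a liver, against 3.8 if the groups were independent and normally distributed. The CPM were used without a log and many genes moved together across livers. The excess over 3.8 therefore cannot be read as more than chance. AF 1 was far above the other AF livers for Krt7 (5.44 CPM), Cldn4 (4.1 CPM), Muc1 (24.4 CPM), Sox4 (41.1 CPM) and Jag2 (0.648 CPM). AF 7 was far above the others for Lamb3 (4.61 CPM) and Aqp1 (145 CPM). Among PF livers, PF 5 was far above the others for Krt20 (0.0905 CPM) and Anxa13 (1.04 CPM), and PF 2 for Hey1 (0.686 CPM). The value of Krt20 in PF 5 rests on 2 counts, and that of Jag2 in AF 1 on 25 counts. The calls of Krt7, Muc1 and Sox4 were kept without AF 1, and that of Lamb3 without AF 7.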

How the results depend on the processing

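Over 18 alternatives, 18 to 25 genes of the set were higher in AF livers and 1 to 3 lower, and 18 to 24 higher and 2 lower when each library was left out. With library totals only, 6458 of all genes were higher and 938 lower, and 1 gene of the set was lower. This scaling moved the median of all genes from 0.04 to 0.40, and gave 20 higher and 1 lower among other Notch genes, 6 and 1 among cilia and cyst genes, 11 higher among junction partners, 1 lower among matriptase partners, 8 higher among progenitor signals, 1 higher among other claudins, and log2 fold changes of 0.19 for Dsg2, 0.31 for Slc4a2 and 0.35 for Notch2, none past the threshold. With every gene with a count, 5 cilia and cyst genes and 1 other claudin were higher. DESeq2 called 2 junction partners lower, and limma-voom 3, with 1 other claudin higher and 3 lower. The causes were not tested.

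Without each library in turn, 2 to 7 genes of bicarbonate secretion were higher, 1 to 3 cilia and cyst genes were higher and 1 to 2 lower, 1 to 2 junction partners and 1 to 2 matriptase partners were lower, and 0 to 1 other claudins were higher and 1 to 2 lower. The log2 fold change of Slc4a2 ran from -0.11 to 0.03 and that of Notch2 from -0.07 to 0.00.

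PF and AF livers share replicate numbers 1 to 5, but the numbers did not pair them. The deviations of same-numbered livers correlated at 0.00335, -0.0749, 0.117, 0.0794 and 0.115, and only number 3 matched its own number best. With the replicate block on these 10 libraries, 24 genes of the set were higher and 2 lower, against 25 and 2 without the block. The block gave 3342 of all genes higher and 2914 lower, against 3613 and 3090 without it on the same libraries. The fit with the block, which also lacks AF 6 and AF 7, had 8 progenitor signals higher, 3 other claudins lower, a log2 fold change of 0.02 for Notch2, and Pkhd1 (0.75, adjusted p = 0.0214), Cd24a and Spp1 past the threshold. Whether the block or the missing livers moved these was not tested.

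Krt20, Cldn4, Cldn7, Sctr, Cftr and Jag2 were below the filter, which asks for enough counts in at least 5 libraries. Krt20 was over its cut in 3 AF livers, Cldn4, Cldn7 and Cftr in 4, Jag2 in 1 and Sctr in 0. In the fit of every gene with a count, Krt20, Cldn4 and Cldn7 passed, and Sctr, Cftr and Jag2 did not (adjusted p = 0.412, 0.0549 and 0.0736).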
